A study of Mus musculus with 8 samples.

Results

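The genes described here encode proteases that act outside the cell or at its surface, their inhibitors, and the lysyl oxidases, which cross-link collagen and elastin. They were chosen by symbol from the deposited comparison of *Hdac3* KO and EV mouse cardiac endothelial cells (MCECs). The rule took every protein-coding gene whose symbol marks a matrix metalloproteinase (Mmp), a TIMP, *Reck*, an ADAM, ADAMTS or ADAMTS-like protein, a serpin, a lysyl oxidase, a plasminogen activator or its receptor, tissue factor, an HtrA or Prss protease, or a cystatin of the Cst family. It returned 58 of the 8278 genes of the table, of which 7976 are protein-coding. No member of the tolloid or tissue factor pathway inhibitor families that the rule also names is in the table.

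The question of the comparison is which transcripts differ between cardiac endothelial cells with and without HDAC3, a histone deacetylase. MCECs are an established mouse line grown in DMEM with fetal bovine serum. The 4 *Hdac3* KO samples carry a lentiviral CRISPR-Cas9 knockout of *Hdac3*, and the 4 EV samples were transduced with the empty vector lentivirus, so both groups share lentiviral transduction and the line. The sources do not say whether the knockout cells are a clone or a pool. The study describes its in vitro replicates in general as technical, without saying so of these samples. It also states that its legends count biological replicates, and the legend for this RNA-Seq gives 4 per group. Which kind these samples are is thus not clear, so p-values measure only the spread between these samples, which may be technical.

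In the extracellular matrix, metalloproteinases of the Mmp, ADAM and ADAMTS families cut collagens, proteoglycans and membrane proteins, and TIMPs and *Reck* inhibit them. Plasminogen activators turn plasminogen into plasmin, which digests fibrin and can activate Mmp proenzymes. Most serpins trap serine proteases, cystatins inhibit lysosomal-type cysteine proteases, and lysyl oxidases oxidize lysines in collagen and elastin so that fibers are cross-linked. In the developing heart, turnover of the matrix between endocardium and myocardium is part of trabeculation.

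The libraries held 15775327 to 21262575 reads in EV cells and 19356714 to 22255684 in *Hdac3* KO cells, and the listed genes took 84.3% to 84.4% and 85.8% to 85.9% of them. *Hdac3* itself was at 1943, 2077, 2064 and 2147 normalized counts in EV and 1558, 1465, 1496 and 1531 in *Hdac3* KO libraries (log2 fold change -0.45, SE 0.035, adjusted p = 1.04e-13). The counts are given per gene, so the *Hdac3* level does not show whether an edited transcript encodes protein. The study reports a western blot that verified the deletion in its *Hdac3* KO MCECs. Endothelial markers were checked against the label: 6 of 14 are in the table, and their summed level was 1860 to 2049 normalized counts in EV cells and 1627 to 1742 in *Hdac3* KO cells. *Eng* makes up most of that sum, and 5 of the 6 were lower in *Hdac3* KO MCECs, with log2 fold changes of -1.41 for *Tek*, -1.20 for *Kdr*, -0.47 for *Egfl7*, -0.26 for *Flt1* and -0.16 for *Eng*. *Pecam1*, the higher one, was at 0 to 1.19 normalized counts in EV cells and 1.88 to 8.23 in *Hdac3* KO cells. Of 8 fibroblast markers 6 are in the table, with summed levels of 130678 to 137694 and 119288 to 122729, and 5 of the 6 were lower in *Hdac3* KO MCECs. The sum is carried by *Col3a1* and by *Col1a1*, the higher one, while *Pdgfrb* was at a mean of 578 and 119 in EV and *Hdac3* KO libraries, *Pdgfra* at 265 and 98.9 and *Dcn* at 12428 and 5358. Of 5 smooth muscle markers 3 are listed, with sums of 751 to 941 and 219 to 261, set by the lower *Tagln* and *Acta2*, whereas *Des* was higher (mean 17.0 and 51.6, log2 fold change 1.62). For 5 leukocyte markers only *Cd68* is listed, at 124 to 137 and 279 to 314. For 4 epithelial markers *Krt8* and *Krt18* are listed, with sums of 47.5 to 65.8 and 121 to 161, and none of 7 cardiomyocyte markers is listed. In both groups *Pecam1* was near 0 beside abundant fibrillar collagen transcripts. *Eng* was at a mean of 1443 and 1291 and *Flt1* at 347 and 291 in EV and *Hdac3* KO libraries. Endothelial markers outside the table cannot be judged, because it lists only genes that passed the authors' test. The listed markers alone thus show no plain endothelial profile in either group, and the part of these markers in the results below was not tested. In bulk samples, fewer cells of a type and less RNA per cell cannot be told apart.

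Promoter sequences are shown first for the members whose windows hold an AP-1 site, and for *Mmp8*, the neighbor of 3 of them that lacks one. AP-1, the dimer of Fos and Jun proteins, is the textbook regulator of collagenase and stromelysin genes. RefSeq promoter windows of GRCm38.p6, from 250 bases before to 50 after the transcript start, were matched to 39 of the 58 members in 41 windows. Among those not matched were *Adam12*, *Adam9*, *Adamts10*, *Adamts4*, *Adamts5*, *Adamts7*, *Adamtsl1*, *Htra2*, *Loxl2*, *Loxl3*, *Mmp16*, *Mmp2*, *Plat*, *Plau*, *Prss57*, *Serpina9* and *Serping1*. *Lox* was left out before matching, so its absence does not show that it lacks a window. The shares of member windows given below do not include it. Capitals mark the AP-1 site (TGAGTCA, on either strand) and the TATA box (TATAAA, on either strand), which do not overlap in these windows, and each window is written 5′ to 3′ on the gene's strand.
Mmp13, chr9:7272264-7272563, plus strand: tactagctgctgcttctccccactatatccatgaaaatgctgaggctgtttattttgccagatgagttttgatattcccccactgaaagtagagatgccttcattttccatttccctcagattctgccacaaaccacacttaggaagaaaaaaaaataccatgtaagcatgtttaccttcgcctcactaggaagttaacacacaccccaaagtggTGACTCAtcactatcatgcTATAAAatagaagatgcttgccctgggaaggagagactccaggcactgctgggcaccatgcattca
Mmp3, chr9:7445572-7445871, plus strand: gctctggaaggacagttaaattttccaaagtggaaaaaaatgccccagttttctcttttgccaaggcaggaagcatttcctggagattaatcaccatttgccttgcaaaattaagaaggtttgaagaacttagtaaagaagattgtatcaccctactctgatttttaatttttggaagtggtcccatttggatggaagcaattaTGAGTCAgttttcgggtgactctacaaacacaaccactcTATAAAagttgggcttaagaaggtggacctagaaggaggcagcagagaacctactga
Mmp10, chr9:7502092-7502391, plus strand: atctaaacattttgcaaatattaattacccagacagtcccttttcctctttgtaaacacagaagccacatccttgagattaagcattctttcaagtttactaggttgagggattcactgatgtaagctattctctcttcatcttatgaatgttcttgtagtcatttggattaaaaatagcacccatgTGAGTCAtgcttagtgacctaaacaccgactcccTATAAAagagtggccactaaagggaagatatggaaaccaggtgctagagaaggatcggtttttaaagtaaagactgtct
Mmp8, chr9:7558179-7558478, plus strand: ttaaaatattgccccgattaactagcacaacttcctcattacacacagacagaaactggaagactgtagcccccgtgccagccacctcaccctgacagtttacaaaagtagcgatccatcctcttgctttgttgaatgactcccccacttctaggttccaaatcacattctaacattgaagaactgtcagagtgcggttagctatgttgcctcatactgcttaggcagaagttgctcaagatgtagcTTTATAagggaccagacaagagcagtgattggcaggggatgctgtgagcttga
F3, chr3:121723287-121723586, plus strand: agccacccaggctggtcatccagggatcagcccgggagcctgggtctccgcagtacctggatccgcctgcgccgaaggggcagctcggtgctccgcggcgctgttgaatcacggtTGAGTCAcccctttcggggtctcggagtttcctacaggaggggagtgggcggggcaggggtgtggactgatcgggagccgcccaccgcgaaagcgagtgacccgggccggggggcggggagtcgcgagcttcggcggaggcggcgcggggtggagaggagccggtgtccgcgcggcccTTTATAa
Plaur, chr7:24462233-24462532, plus strand: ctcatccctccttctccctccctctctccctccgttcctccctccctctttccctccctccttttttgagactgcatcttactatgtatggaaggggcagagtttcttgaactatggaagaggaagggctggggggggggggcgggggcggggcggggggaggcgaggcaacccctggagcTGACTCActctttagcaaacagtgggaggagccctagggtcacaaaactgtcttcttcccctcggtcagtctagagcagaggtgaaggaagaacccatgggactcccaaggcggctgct
Serpinb8, chr1:107589756-107590055, plus strand: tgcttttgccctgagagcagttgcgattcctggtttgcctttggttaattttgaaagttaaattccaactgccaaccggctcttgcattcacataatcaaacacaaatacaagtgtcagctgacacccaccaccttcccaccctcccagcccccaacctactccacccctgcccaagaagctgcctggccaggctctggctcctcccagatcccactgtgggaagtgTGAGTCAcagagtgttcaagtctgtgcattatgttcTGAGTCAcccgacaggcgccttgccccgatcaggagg

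The AP-1 letters were in 6 of the 41 member windows (14.6%), against 5.20% of all 32851 windows of this length. They lie 35 bases before the start in *Mmp13*, 46 in *Mmp3*, 63 in *Mmp10*, 69 in *Plaur* and 135 in *F3*, and *Serpinb8* holds the site at 23 bases before and at base 14 after the start. Of these 6 genes, *Mmp13*, *Mmp3*, *Plaur* and *F3* were higher in *Hdac3* KO MCECs and *Mmp10* and *Serpinb8* were lower. The site was in 4 of 18 windows of higher members and 2 of 23 windows of lower members. The TATA box was in 7 member windows (17.1%) against 13.6% of all, the GC box GGGCGG in 27 (65.9%) against 35.7%, and the heat shock element GAANNTTC in 3 (7.32%) against 7.86%, each read on both strands. The median GC content was 60.0% in member windows and 52.7% over all windows. In *F3*, *Mmp8* and *Serpinb6c* the TATA letters lie on the strand opposite the gene, at or after the start. The letters describe the windows and do not show that a factor binds there.

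Of the 58 members, 22 were higher and 35 were lower in *Hdac3* KO MCECs at an adjusted p under 0.01, and *Htra2* did not pass. Unless another tool, gene filter or source is named, adjusted p-values are from the quasi-likelihood test of edgeR, adjusted by Benjamini and Hochberg's method over the whole table. The same cut-off called 96.7% of the listed genes, 47.1% as higher and 49.6% as lower, because the authors' table holds only genes with an adjusted p-value under 0.05. Passing the test therefore says little here, and sizes and directions are described instead. The median log2 fold change was -0.53 over the members and 0.056 over all listed genes. The median absolute log2 fold change was 0.86 over the members and 0.40 over all listed genes. Members that passed the test with a log2 fold change of at least 1 in size numbered 8 higher, against 4.43% of the table, and 19 lower, against 8.36%. These 27 are 46.6% of the members, and 12.8% of the listed genes passed the test and were as far from 0. Without *Prss57*, which had 0 to 3 reads in every library, the median over the other 57 was -0.50. The 2 groups of libraries did not overlap in 57 members, *Serpine3* being the exception, and in 91.1% of the listed genes. Without TMM scaling the median log2 fold change of all listed genes moved from 0.056 to -0.062, a shift larger than the fold changes of the least changed members. It also moved the balance of calls: without TMM 2671 listed genes (32.3%) were higher and 4120 (49.8%) lower, and with totals of the listed genes 2452 (29.6%) and 4146 (50.1%), where 19 members were higher and 35 lower in both fits.

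**Figure D1:**
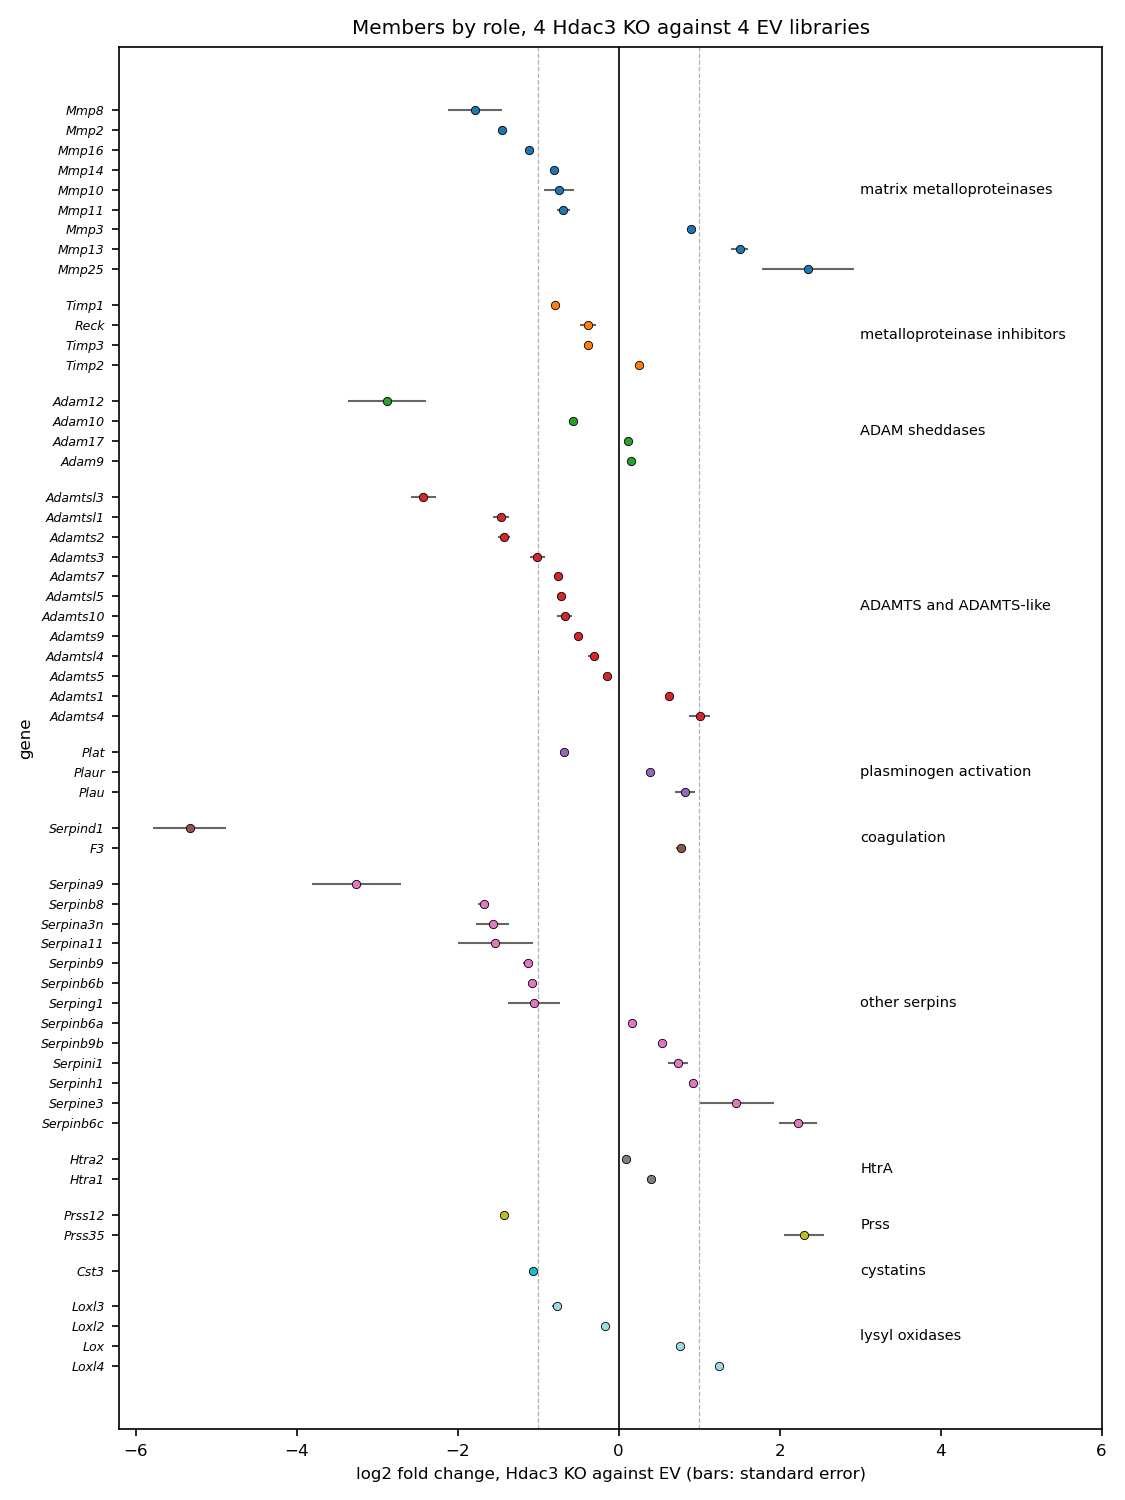
Log2 fold change of *Hdac3* KO against EV MCECs for 56 members, grouped by role, with standard errors as bars and dashed lines at -1 and 1. *Prss57* is left out because it had 0 to 3 reads in every library. The values run from -5.33 for *Serpind1* to 2.35 for *Mmp25*, and in most roles both directions occur.

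Compared per length, as counts per kilobase of gene length on the TMM-scaled library size (the scale of FPKM), a few members carried most of the signal. The 10 highest held 76.8% of the summed per-length level of the members in EV cells and 79.4% in *Hdac3* KO cells, and 8 of the 10 were shared. The summed level was 2353 ± 22.4 and 2381 ± 33.7 (mean ± SD, n = 4 each). In EV MCECs the order was *Cst3* at 375 ± 13.4, *Serpinh1* at 304 ± 5.28, *Timp2* at 287 ± 5.72, *Mmp2* at 247 ± 8.30 and *Lox* at 141 ± 4.60 (mean ± SD, n = 4), with no overlap between neighbors. In *Hdac3* KO MCECs it was *Serpinh1* at 575 ± 12.3, *Timp2* at 341 ± 8.03, *Lox* at 239 ± 10.8, *Cst3* at 179 ± 4.67 and *Adam9* at 128 ± 3.01, again with no overlap between neighbors. *Cst3* thus went from rank 1 to rank 4 and *Mmp2* from rank 4 to rank 7. In *Hdac3* KO MCECs, the libraries of *Timp3* and *Htra1* overlapped, as did those of *Timp1* and *Plat* and of *Plat* and *Mmp14*. Of 25 members with a mean per-length level of at least 10, 13 were higher and 11 lower, and their log2 fold changes had a median of 0.11. Of the 33 below that level, 9 were higher and 24 lower, and the median was -0.75. The listed genes split in the same way, with medians of 0.16 over the 4646 at that level or above (2696 higher, 1755 lower) and -0.37 over the 3632 below it (1199 higher, 2352 lower).

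**Figure D2:**
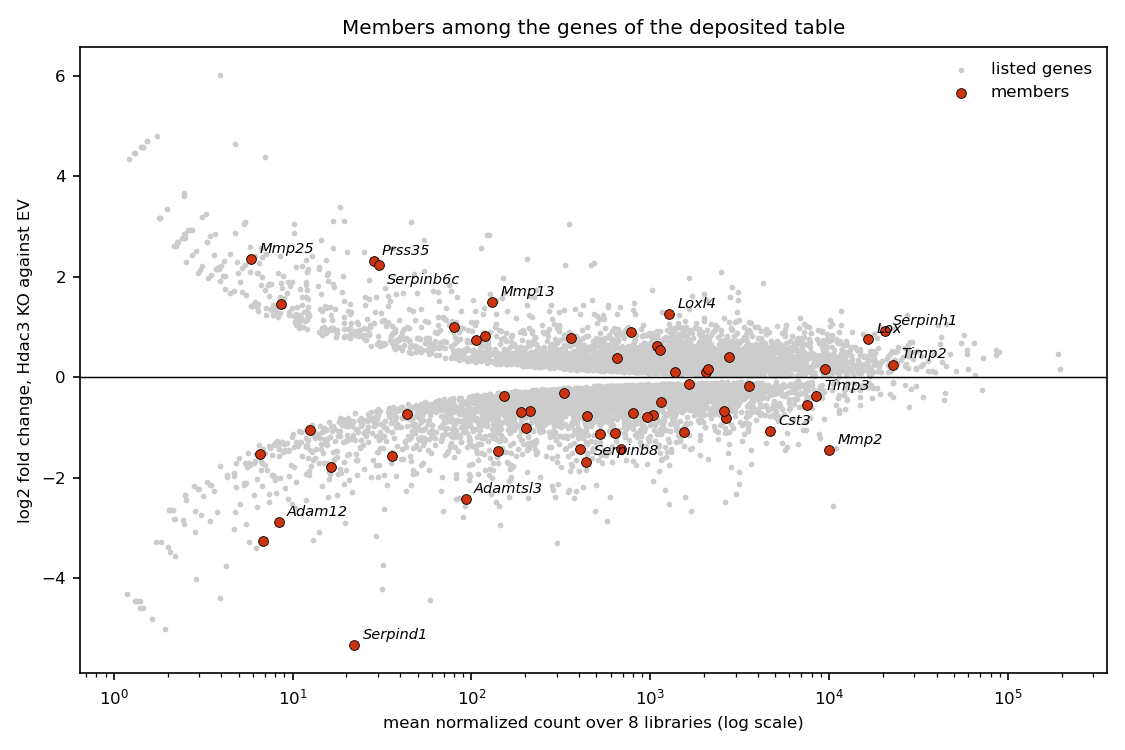
Log2 fold change of *Hdac3* KO against EV MCECs against the mean normalized count over the 8 libraries on a log axis. Gray points are the listed genes and red points are 56 members without *Prss57*. The empty band around 0 reflects that the table lists only genes that passed the authors' test, and *Serpind1*, at -5.33, lies lowest of all points.

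The matrix metalloproteinases fell in 6 of 9 cases and rose in 3. *Mmp2* (gelatinase A), which cleaves denatured collagen and basement membrane collagen, was the most abundant. It was at 14045, 15094, 14536 and 15049.8 normalized counts in the 4 EV libraries and at 5468, 5522, 5385 and 5195 in the 4 *Hdac3* KO libraries. All EV values lay above all *Hdac3* KO values, and the mean was 2.72-fold lower in *Hdac3* KO MCECs (log2 fold change -1.45, SE 0.028, adjusted p = 4.80e-31). *Mmp14*, the membrane-anchored enzyme that activates pro-Mmp2 at the cell surface, was at 3271, 3470.5, 3349 and 3459.8 in EV cells and 1953, 2048, 1925 and 1830.1 in *Hdac3* KO cells (log2 fold change -0.81, SE 0.033, adjusted p = 1.27e-21). *Mmp16*, a second membrane-type enzyme, was at 908, 847, 898 and 844 in EV and 410.3, 388, 408 and 411 in *Hdac3* KO libraries (log2 fold change -1.11, SE 0.05, adjusted p = 2.19e-20). Both membrane-type genes therefore fell together with *Mmp2*, with no overlap between groups, by 1.75-fold and 2.16-fold. *Mmp11* (stromelysin 3) fell by 1.61-fold, from 234 ± 7.08 to 146 ± 8.31 normalized counts (log2 fold change -0.69).

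Opposite to these, *Mmp3* and *Mmp13* rose. *Mmp3* (stromelysin 1), which cuts proteoglycans and fibronectin, was at 539, 526, 523 and 570.3 normalized counts in EV cells and 1043, 1004, 1033 and 969 in *Hdac3* KO cells (log2 fold change 0.9, SE 0.046, adjusted p = 8.67e-19). *Mmp13* (collagenase 3), an interstitial collagenase, was at 73.6, 64.4, 57.5 and 76.3 in EV and 197, 191, 186 and 199 in *Hdac3* KO libraries (log2 fold change 1.5, SE 0.11, adjusted p = 1.26e-14). The increases were 1.88-fold and 2.85-fold, but on the per-length scale the level of *Mmp13* in *Hdac3* KO MCECs, 3.69, stayed well under the 90.7 of *Mmp2*. *Mmp25*, a membrane-linked enzyme best known from leukocytes, had 1, 2, 4 and 0 reads in EV cells and 8, 9, 7 and 17 in *Hdac3* KO cells. Its summed counts give a ratio of 5.37 with a 95% counting interval of 2.39 to 14.2, and its level stayed close to the floor of detection. The fitted log2 fold change was 2.35, and it was 3.09 without EV replicate 3 and 1.87 without EV replicate 4.

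*Mmp13*, *Mmp3*, *Mmp10* and *Mmp8*, all read on the plus strand, lie next to each other among the members on chromosome 9 (mm10), at chr9:7272514-7283333, chr9:7445822-7455972, chr9:7502352-7510238 and chr9:7558429-7568486. The gaps between them are 162, 46.4 and 48.2 kb. *Mmp10* (stromelysin 2) was at 57, 54.4, 54.3 and 52.3 normalized counts in EV cells and 32.6, 38.4, 19.8 and 39.4 in *Hdac3* KO cells, a fall of 1.67-fold (log2 fold change -0.74, SE 0.19, adjusted p = 4.69e-04). *Mmp8*, the collagenase of neutrophils, was at 19, 23.3, 34.5 and 25.7 in EV and 3.16, 3.66, 14.1 and 8.44 in *Hdac3* KO libraries (log2 fold change -1.78, SE 0.33, adjusted p = 1.07e-05). Along the stretch the log2 fold changes were thus 1.5, 0.9, -0.74 and -1.78, the first 2 genes being higher and the last 2 lower. As the sequences above show, *Mmp13*, *Mmp3* and *Mmp10* share an AP-1 site and a TATA box near the start although *Mmp10* moved the other way. The *Mmp8* window holds only the TATA letters, which lie on the opposite strand and begin 3 bases before the start. *Mmp3* and *Mmp10* share 8.39% and 8.37% of their transcript 50-mers, mainly with each other, so a part of their reads could be assigned to either gene.

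**Figure D3:**
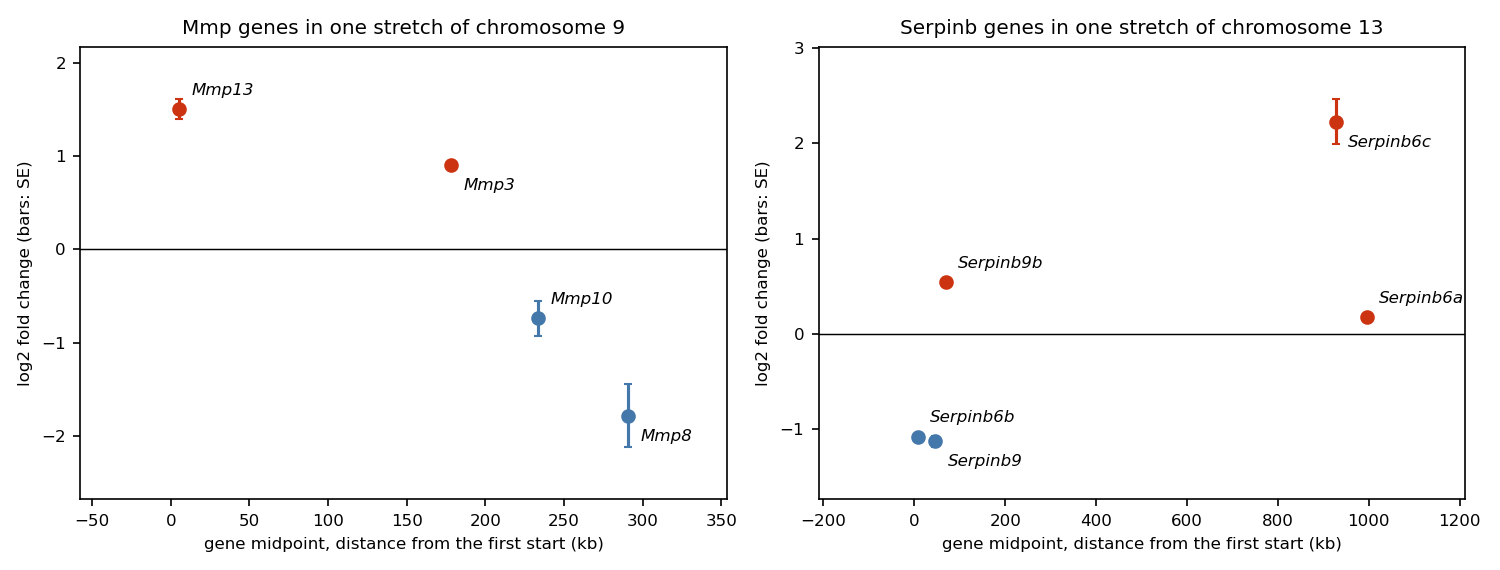
Log2 fold change with standard error against the distance of each gene's midpoint from the first gene start, in kb, for 4 Mmp genes on chromosome 9 and 5 Serpinb genes on chromosome 13. Red marks higher and blue lower in *Hdac3* KO MCECs. Both stretches hold neighbors that differ in direction, such as *Mmp3* at 0.90 and *Mmp10* at -0.74. Both also hold neighbors that share it, such as *Serpinb6b* at -1.08 and *Serpinb9* at -1.13.

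Among the metalloproteinase inhibitors, 1 of 4 rose and 3 fell. *Timp1*, a secreted inhibitor of most Mmp proteins, was at 1201, 1188, 1191 and 1266 normalized counts in EV cells and 718, 684, 701 and 703 in *Hdac3* KO cells, 1.73-fold lower (log2 fold change -0.79, SE 0.041, adjusted p = 1.43e-18). *Timp2*, which inhibits *Mmp2* and also takes part in its activation by *Mmp14*, was at 20330.2, 21191, 20638 and 21148 in EV and 25279, 24405, 24185 and 25306 in *Hdac3* KO libraries (log2 fold change 0.25, SE 0.025, adjusted p = 2.89e-11). *Timp3*, the TIMP that binds to the matrix, was at 9589, 9579.7, 9628 and 9389.6 in EV and 7259.8, 7195, 7365 and 7545 in *Hdac3* KO libraries (log2 fold change -0.38, SE 0.025, adjusted p = 1.13e-15). The groups did not overlap for any of the 3, and *Timp2* alone was higher, also without TMM scaling, where its log2 fold change was 0.13. A share of 21.3% of the exonic bases of *Timp3* lies opposite exons of *Syn3*, and whether counting used strand is not given in the sources used here. *Reck*, a membrane-anchored Mmp inhibitor, was at 155, 202, 174 and 159.6 in EV and 115, 135, 138 and 141 in *Hdac3* KO libraries (log2 fold change -0.38, SE 0.10, adjusted p = 8.67e-04), a small difference without overlap.

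Because *Timp2* rose while *Timp1* and *Timp3* fell, the make-up of the TIMP transcripts shifted. On the per-length scale *Timp2* took 61.8%, 62.9%, 62.2% and 62.5% of the summed TIMP level in the EV libraries and 74.4%, 74.1%, 73.5% and 74.0% in the *Hdac3* KO libraries. *Timp1* went from 15.2% ± 0.385 to 8.79% ± 0.135, and *Timp3* from 22.4% ± 0.498 to 17.2% ± 0.338 (mean ± SD, n = 4 each). Each of these shares separated the groups completely (two-sided exact permutation test over 4 against 4 libraries, p = 0.0286, the smallest this design allows), and shares do not depend on library scaling. The summed level itself was 460 ± 5.99 and 461 ± 9.36 with TMM scaling, and 479 ± 4.48 and 443 ± 8.52 as the sum of the authors' FPKM values, so its change depends on the scaling. The ratio of the per-length levels of *Mmp2* and *Timp2* was 0.843 to 0.870 in EV cells and 0.251 to 0.276 in *Hdac3* KO cells. That of *Mmp14* and *Timp2* was 0.230 to 0.234 and 0.103 to 0.120. That of *Mmp3* and *Timp1* was 0.216 to 0.221 and 0.677 to 0.724, the opposite direction. Transcript ratios do not give protein or activity ratios.

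**Figure D4:**
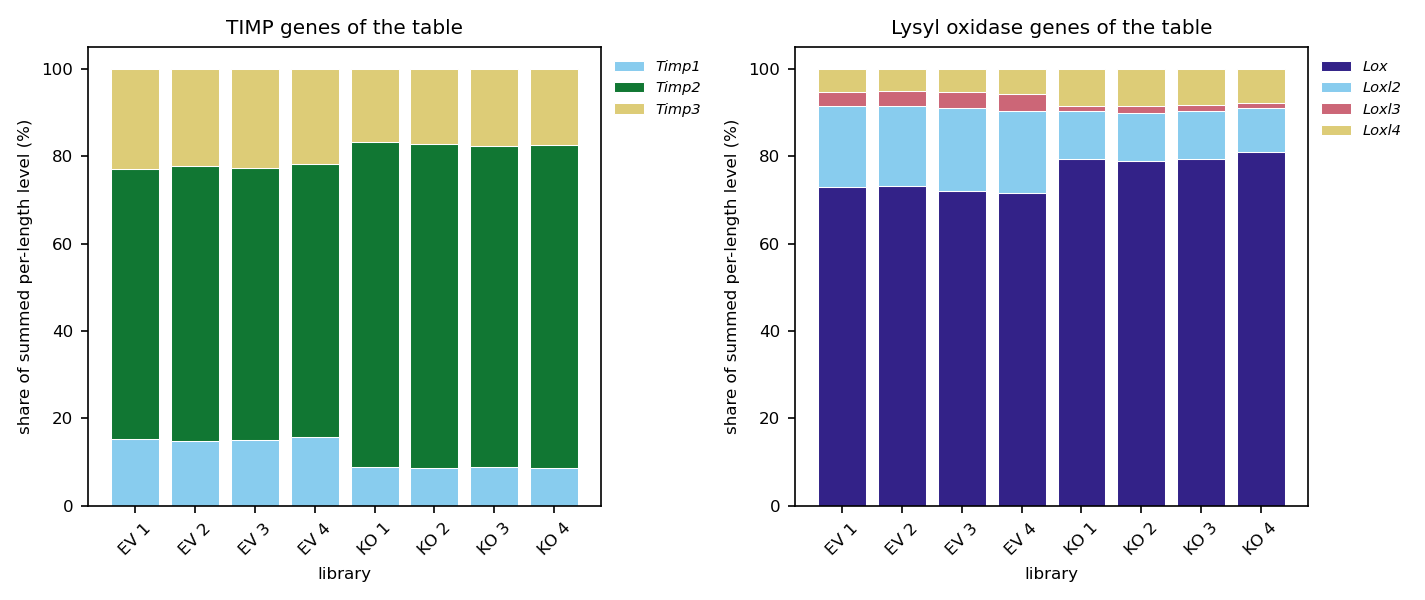
Share of each gene in the summed per-length level of the TIMP genes and of the lysyl oxidase genes, in percent, for each of the 4 EV and 4 *Hdac3* KO (KO) libraries. *Timp2* rises from a mean of 62.3% to 74.0% and *Lox* from 72.4% to 79.7%, and the bars of a group are alike.

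The ADAM genes encode membrane proteases that release ectodomains of growth factors, receptors and adhesion proteins. *Adam10*, the main sheddase of Notch receptors, was at 9259, 9197, 8685 and 8639 normalized counts in EV cells and 5903, 6227, 6085 and 6005 in *Hdac3* KO cells, 1.48-fold lower (log2 fold change -0.56, SE 0.028, adjusted p = 2.92e-19). *Adam17*, which releases tumor necrosis factor and several ligands of the epidermal growth factor receptor, was at 1936, 1943, 2028 and 1979 in EV and 2075, 2168, 2151 and 2128 in *Hdac3* KO libraries (log2 fold change 0.11, SE 0.032, adjusted p = 0.00137). Thus *Adam10* fell, while the small difference of *Adam17* depends on scaling, with a log2 fold change of -0.0056 without TMM. *Adam9* was 8992 ± 145 and 10008 ± 235 (log2 fold change 0.15 with TMM scaling and 0.037, not passing the test, without it). *Adam12*, a protease known from muscle and mesenchymal cells, had 10, 12, 21 and 14 reads in the EV libraries and 0, 3, 3 and 2 in the *Hdac3* KO libraries, and the ratio of the summed counts was 0.129 with a 95% counting interval of 0.0531 to 0.271.

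The ADAMTS proteases, secreted enzymes that cut proteoglycans and process procollagen, fell in 6 of 8 cases, and all 4 ADAMTS-like genes, which encode related matrix proteins without a protease domain, fell. *Adamts2*, which removes the aminopropeptide of fibrillar procollagens, was at 506, 622, 599.7 and 621 normalized counts in EV cells and 219.9, 232, 206 and 219 in *Hdac3* KO cells, 2.67-fold lower (log2 fold change -1.42, SE 0.07, adjusted p = 2.48e-19). *Adamts3*, a related procollagen protease, was at 231, 304, 273 and 276 in EV and 123, 152, 140.3 and 123 in *Hdac3* KO libraries (log2 fold change -1.01, SE 0.094, adjusted p = 7.55e-12). The 2 procollagen proteases therefore fell in all 4 *Hdac3* KO libraries below every EV library. *Adamts10* (log2 fold change -0.67), *Adamts7* (-0.75), *Adamts9* (-0.5) and *Adamts5* (-0.14) were lower as well. Of these *Adamts9* has 12% of its exonic bases opposite exons of other genes.

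The 2 higher ADAMTS genes both encode proteoglycan-cutting enzymes. *Adamts1*, which cleaves versican and aggrecan, was at 846, 867, 859 and 834 normalized counts in EV cells and 1317, 1242, 1301 and 1409 in *Hdac3* KO cells, 1.55-fold higher (log2 fold change 0.63, SE 0.042, adjusted p = 1.11e-15). *Adamts4*, an aggrecanase, was at 54.6, 54.4, 57.5 and 46.1 in EV and 99.95, 108, 111 and 106 in *Hdac3* KO libraries (log2 fold change 1.01, SE 0.13, adjusted p = 1.53e-08). No EV value of either gene reached the lowest *Hdac3* KO value. *Adamts1* and *Adamts5*, at chr16:85793827-85803113 and chr16:85858170-85901125 (mm10) on the minus strand, are separated by 55.1 kb, and *Adamts5*, also an aggrecanase, was at 1716, 1818, 1704 and 1707 in EV and 1574, 1587, 1572 and 1557 in *Hdac3* KO libraries, slightly lower.

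Among ADAMTS-like genes, *Adamtsl3* was at 142, 148, 150.4 and 185 normalized counts in EV cells and 26.3, 41.2, 29.2 and 19.7 in *Hdac3* KO cells, 5.38-fold lower (log2 fold change -2.43, SE 0.16, adjusted p = 5.77e-16). *Adamtsl1* was at 203, 201, 213 and 208 in EV and 85.2, 77.8, 71.6 and 66.6 in *Hdac3* KO libraries (log2 fold change -1.46, SE 0.10, adjusted p = 6.60e-15). These 2 were lower by more than the others of the group, *Adamtsl5* at -0.71 and *Adamtsl4*, a protein of fibrillin microfibrils, at -0.31 on the log2 scale.

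Among the genes of plasminogen activation, *Plau* and its receptor *Plaur* rose and *Plat* fell. *Plau* (urokinase), a secreted activator, was at 79.5, 115, 83.6 and 68.3 normalized counts in EV and 153, 148, 166 and 143 in *Hdac3* KO libraries (log2 fold change 0.82, SE 0.12, adjusted p = 2.31e-07). *Plaur*, the cell-surface receptor of urokinase, was at 602, 554, 555 and 549 in EV and 741, 691, 750.4 and 768 in *Hdac3* KO libraries (log2 fold change 0.39, SE 0.05, adjusted p = 1.47e-08). *Plat* (tissue plasminogen activator), the activator that endothelial cells release to start clot lysis, moved the other way, from 3154, 3115, 3218 and 3289.5 to 2032, 2045, 2022 and 1900.4, 1.6-fold lower (log2 fold change -0.68, SE 0.031, adjusted p = 4.52e-20). None of these 3 genes overlapped between groups. The ratio of the per-length levels of *Plau* and *Plat* was 0.0224 to 0.0401 in EV cells and 0.0783 to 0.0886 in *Hdac3* KO cells, so *Plat* stayed the far more abundant of the 2.

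**Figure D5:**
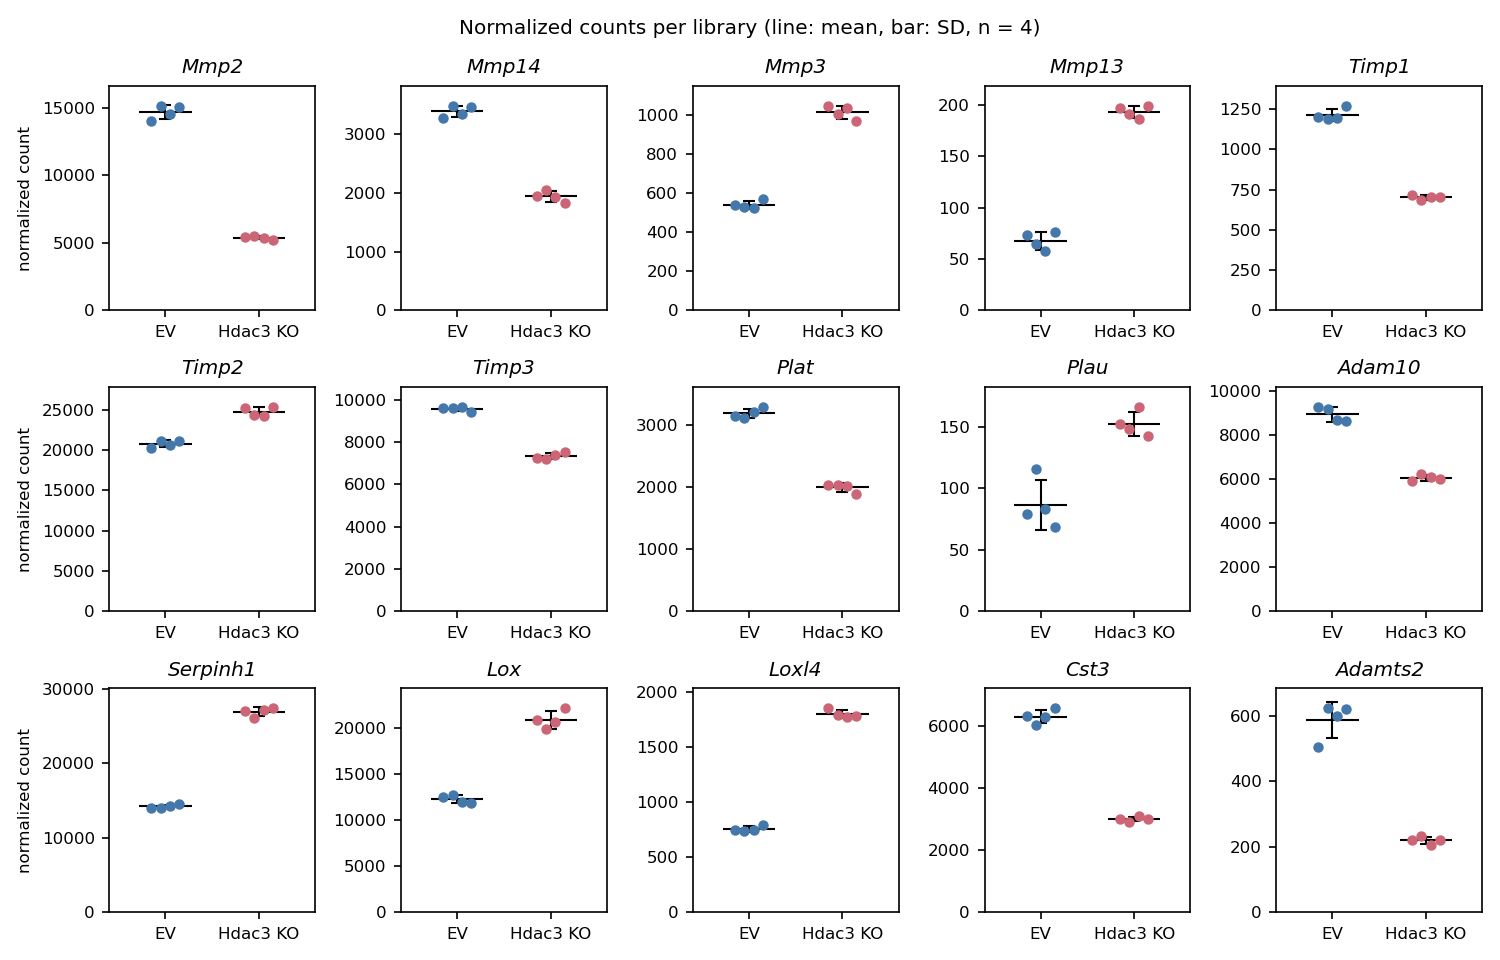
Normalized counts of 15 members in each of the 4 EV and 4 *Hdac3* KO libraries, with the mean as a line and the SD as a bar, each axis starting at 0. The groups separate in every panel. *Mmp2* falls from a mean of 14681 to 5392 and *Lox* rises from 12311 to 20907.

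Coagulation is represented by 2 genes. *F3* (tissue factor), which starts the extrinsic clotting pathway, was at 265, 262, 274 and 267 normalized counts in EV cells and 461, 445, 451 and 478 in *Hdac3* KO cells, 1.72-fold higher (log2 fold change 0.78, SE 0.062, adjusted p = 1.68e-13). *Serpind1* (heparin cofactor II), an inhibitor of thrombin, had 45, 23, 49 and 49 reads in the EV libraries and 2, 2, 0 and 0 in the *Hdac3* KO libraries. The ratio of the summed counts was 0.0221 with a 95% counting interval of 0.00595 to 0.0577, so *Serpind1* fell to near the floor. Neither gene overlapped between groups.

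Of the 13 other serpins, 6 rose and 7 fell. *Serpinh1* (HSP47) does not inhibit proteases but is the collagen chaperone of the endoplasmic reticulum. It was at 14012, 14009, 14321 and 14512 normalized counts in EV cells and 27003, 26072, 27197 and 27357 in *Hdac3* KO cells, 1.89-fold higher (log2 fold change 0.92, SE 0.025, adjusted p = 6.62e-27), and was the highest member per length in *Hdac3* KO MCECs. The 3 clade A members, *Serpina3n*, *Serpina9* and *Serpina11*, fell. *Serpina3n*, a secreted inhibitor of the acute phase, was at 53.4, 51.1, 55.4 and 55.9 in EV and 11.6, 20.1, 25.4 and 15 in *Hdac3* KO libraries (log2 fold change -1.56, SE 0.21, adjusted p = 2.28e-08), and shares 6.90% of its 50-mers with relatives. *Serpina9* had 8, 9, 20 and 11 reads in EV cells and 1, 1, 2 and 1 in *Hdac3* KO cells, a ratio of the summed counts of 0.0956 with a 95% counting interval of 0.0297 to 0.239. *Serpina11* had 8, 9, 8 and 13 reads in EV and 2, 4, 1 and 7 in *Hdac3* KO libraries, it shares 35.7% of its 50-mers with *Gm28577*, and its call was lost without EV replicate 4 (log2 fold change -1.43) or without *Hdac3* KO replicate 3 (-1.22).

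Clade B serpins act mainly inside cells, and of the 6 listed, 3 rose and 3 fell. *Serpinb8* was at 653, 639, 649 and 707 normalized counts in EV cells and 228, 200.3, 194 and 208 in *Hdac3* KO cells, 3.19-fold lower (log2 fold change -1.68, SE 0.064, adjusted p = 1.81e-22). *Serpinb6b* was at 2179, 2069, 2059 and 2067 in EV and 959.6, 938, 1041 and 1016 in *Hdac3* KO libraries (log2 fold change -1.08, SE 0.038, adjusted p = 1.23e-23). *Serpinb9*, an inhibitor of granzyme B, was at 787, 676, 714 and 686 in EV and 327, 316, 343 and 318 in *Hdac3* KO libraries (log2 fold change -1.13, SE 0.058, adjusted p = 1.06e-18). In contrast to these 3, *Serpinb6c* was at 8.31, 7.77, 10.4 and 15.1 in EV and 48.4, 56.7, 54.6 and 42.2 in *Hdac3* KO libraries, 4.85-fold higher (log2 fold change 2.23, SE 0.24, adjusted p = 1.99e-10). *Serpinb9b* rose by 1.45-fold, from 924 ± 34.3 to 1345 ± 74.3 (log2 fold change 0.54). *Serpinb6a* differed little, at 1978 ± 24.2 and 2227 ± 44.4 (log2 fold change 0.17, and 0.053 without TMM scaling, where it did not pass the test). On chromosome 13 (mm10) *Serpinb6b*, *Serpinb9* and *Serpinb9b* follow each other on the plus strand at chr13:32965209-32979067, chr13:33003250-33017957 and chr13:33027416-33041884, and the last of the 3, which lies 9.46 kb from *Serpinb9*, was the only higher one. *Serpinb6c* and *Serpinb6a* lie 12.2 kb apart on the minus strand. *Serpinb6c* shares 9.92% of its transcript 50-mers with other genes and *Serpinb6b* 2.92%, and 29.3% of the exonic bases of *Serpinb6a* lie opposite other exons.

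The remaining serpins had few reads. *Serpini1* (neuroserpin), an inhibitor of tissue plasminogen activator, rose by 1.66-fold, from 79.7 ± 10.5 to 132 ± 17.7 normalized counts (log2 fold change 0.74). *Serping1*, the inhibitor of complement component C1, was at 17.8, 21.1, 12.5 and 16.9 in EV and 7.37, 11.9, 5.65 and 7.5 in *Hdac3* KO libraries (log2 fold change -1.05, SE 0.32, adjusted p = 0.00299). Its call was lost without EV replicate 2 (log2 fold change -0.94) or without *Hdac3* KO replicate 3 (-0.90), and with DESeq2 it just missed the cut-off, at an adjusted p of 0.0103. *Serpine3* had 2, 9, 3 and 3 reads in EV cells and 15, 9, 21 and 7 in *Hdac3* KO cells, the only member with overlapping groups. Its log2 fold change was 1.46, and its call was lost without EV replicate 1 (1.29), 3 (1.33) or 4 (1.25) or without *Hdac3* KO replicate 1 (1.35) or 3 (1.15). Without EV replicate 2 it was 2.14, and 24.8% of the exonic bases of *Serpine3* lie opposite exons of *Ints6*.

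*Cst3* (cystatin C), a secreted inhibitor of cathepsins, was at 6346, 6028, 6312 and 6577 normalized counts in EV cells and 3026, 2914, 3105 and 3007 in *Hdac3* KO cells, 2.1-fold lower (log2 fold change -1.07, SE 0.029, adjusted p = 1.48e-26). *Htra1*, a secreted serine protease that degrades matrix proteins, was at 2301, 2421, 2371 and 2439.9 in EV and 3192, 3078, 3149.5 and 3201 in *Hdac3* KO libraries (log2 fold change 0.4, SE 0.03, adjusted p = 1.85e-14). The first was lower in every *Hdac3* KO library and the second higher. *Htra2*, a mitochondrial protease that belongs to the list by name only, was at 1323 ± 17.0 and 1414 ± 46.0 (log2 fold change 0.095, adjusted p = 0.0126). Its log2 fold change passed the test without *Hdac3* KO replicate 4, at 0.12, and was -0.022 without TMM scaling, and 43.7% of its exonic bases lie opposite exons of *Aup1* and *Loxl3*.

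The 3 Prss genes of the table encode unlike trypsin-type proteins. *Prss12* (neurotrypsin), a secreted protease that cuts agrin, was at 996, 978, 1014 and 1018 normalized counts in EV cells and 382, 352, 405 and 359 in *Hdac3* KO cells, 2.67-fold lower (log2 fold change -1.42, SE 0.05, adjusted p = 2.26e-23). *Prss35* was at 10.7, 8.88, 12.5 and 6.21 in EV and 53.7, 48.5, 46.1 and 40.3 in *Hdac3* KO libraries, 4.92-fold higher (log2 fold change 2.3). Both differed without overlap and in opposite directions. *Prss57* had 2, 2, 3 and 2 reads in EV MCECs and 0 in each *Hdac3* KO library, which is at or under the floor of 3 reads, and no fold is given.

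The lysyl oxidases, copper enzymes, differed in direction: 2 rose and 2 fell. *Lox* was at 12558, 12742, 12048 and 11898 normalized counts in EV cells and 20894, 19909, 20648 and 22176 in *Hdac3* KO cells, 1.7-fold higher (log2 fold change 0.76, SE 0.029, adjusted p = 1.31e-22). *Loxl4* was at 750.0, 733, 747 and 788 in EV and 1848, 1790.3, 1774 and 1782 in *Hdac3* KO libraries, 2.38-fold higher (log2 fold change 1.25, SE 0.038, adjusted p = 2.53e-25). In both genes the lowest *Hdac3* KO library lay above the highest EV library. *Loxl3* was at 529, 555, 560.0 and 594 in EV and 318, 361, 339.9 and 302 in *Hdac3* KO libraries, 1.69-fold lower (log2 fold change -0.76, SE 0.062, adjusted p = 2.40e-13). *Loxl2*, known for cross-linking of basement membrane collagen, was at 3788, 3769, 3775 and 3749.8 in EV and 3397, 3299.7, 3387 and 3288 in *Hdac3* KO libraries, a fall of 1.13-fold (log2 fold change -0.17, SE 0.027, adjusted p = 5.46e-07). *Loxl2* shares 45% of its 50-mers with other genes, first of all *Gm21451*, so its level is uncertain, and *Loxl3* has 11.6% of its exonic bases opposite *Htra2*.

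Per length, *Lox* held 72.9%, 73.3%, 72.0% and 71.5% of the summed lysyl oxidase level in the EV libraries and 79.4%, 79.0%, 79.5% and 80.9% in the *Hdac3* KO libraries. *Loxl4* went from 5.31% ± 0.265 to 8.20% ± 0.317, *Loxl2* from 18.7% ± 0.365 to 10.7% ± 0.429 and *Loxl3* from 3.59% ± 0.234 to 1.38% ± 0.154 (mean ± SD, n = 4 each). The groups were again fully separated for each share (two-sided exact permutation test, p = 0.0286). Every share rests on a sum that includes *Loxl2*, whose level is uncertain, and the shares are not independent of each other. The summed level rose from 194 ± 4.20 to 300 ± 10.4 per-length units, 1.54-fold with TMM scaling and 1.42-fold as summed FPKM values of the authors.

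Genes that act with the members were counted from lists written with earlier results known, and their counts stand beside the 47.1% higher and 49.6% lower of all listed genes. Of 66 further extracellular proteolysis genes 29 are in the table, with 4 higher, 24 lower and a median of -0.76 on the log2 scale, against 0.056 over all listed genes. *Pappa2*, a protease of insulin-like growth factor binding proteins, was lowest at -2.77, followed by *Mme* (neprilysin) at -2.13, while *Cpd* (carboxypeptidase D) was at 0.39 and *Ece2* (an endothelin-converting enzyme) at 0.55. Of 30 elastic fiber and collagen-modifying genes, the partners of the lysyl oxidases, 19 are in the table, with 2 higher, 16 lower and a median of -0.54. *P4ha3*, a collagen prolyl hydroxylase, was at -2.57 and *Fmod*, a proteoglycan that binds collagen fibrils, at -2.06, whereas *P4ha2* was at 0.24 and *Fn1* (fibronectin) at 0.50. Of 30 receptors and cofactors of coagulation and plasmin formation 9 are in the table, with 5 higher, 4 lower and a median of 0.28, a split close to that of the whole table. There *Gas6* was at -1.20 and *F2r*, the thrombin receptor PAR1, at -0.57, and *Vldlr*, a receptor that can take up complexes of proteases with serpins, at 0.69 and *Lrp8* at 1.53. Listed genes passed the authors' test, so the lists say nothing of the genes outside the table.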

How the data were processed

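Bulk RNA-Seq of MCECs was analysed, 4 samples with *Hdac3* KO and 4 with EV, grouped by sample title and column name. The authors aligned reads to mm10 with tophat2 and bowtie2, and the submitters' processing notes name CASAVA and DESeq 1.6.3. The study's methods name the cufflinks suite for differential expression and, in the statistics section, the lumi package for normalizing and extracting a count matrix and DESeq2 for testing. Which program assigned reads to genes, and whether strand was used, are not clear from these. As deposited, the counts are whole numbers of reads without normalization. The deposited FPKM values were scaled by the authors with gene length and library total. The deposited p-values and fold changes are the authors' own comparison. Only the adjusted p-value was read, to establish that the table holds genes under 0.05 (largest 0.049988). The gene length, another deposited column, was used for levels per length.

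Library totals were recovered from count, length and FPKM and multiplied by TMM factors. All 8278 genes were tested with the quasi-likelihood test of edgeR 4.0.16 (R 4.3.3, limma 3.58.1), with Benjamini-Hochberg adjustment and a cut-off of 0.01, without a filter on low counts. A floor of 3 reads was used, the biological coefficient of variation was 2.82%, and read-based intervals cover counting error only. Single values were also compared with the exact permutation test over 70 arrangements. In simulated data for the comparison of *Hdac3* KO with EV, with 200 of 8278 genes changed, edgeR recovered 196 with 2 false calls and DESeq2 196 with 2. All other genes were unchanged in that simulation, whereas 96.7% of the listed genes were called in the data. It therefore does not test the scaling or the calls of this table. Alternatives were DESeq2 1.42.0, its size factors, no TMM, a replicate block, a filter of 10 counts in 4 libraries, other cut-offs, a fit on protein-coding genes and leaving out each library. A cut-off of 0.5 on the log2 fold change and totals of the listed genes as library sizes were added after seeing the data.

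Full values are given for members past the cut-off with a log2 fold change of at least 1 in size, no overlap and, in the group where they are higher, a mean of 50 or more normalized counts (17 genes), and for a fixed list of well-known members. Outside the members the 2 lowest and 2 highest of each list with that mean are named. The members and lists were chosen with earlier results of these data known. Values of 1 member are not reported here. Exon overlaps and shared 50-mers come from GENCODE vM21, promoters from RefSeq, and figures from matplotlib 3.10.9 in Python 3.11.15.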

Additional observations from a re-analysis of the deposited data

Results flagged for a closer look

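Dixon's test, which asks whether 1 of 4 libraries stands away from the rest of its group, was run on 130 sets of values, and 11 passed its 95% critical value, where chance gives about 1 in 20, or 6.5. In the EV libraries, *Adam12* was at 21.9 normalized counts in replicate 3 against 11.9 to 13.3 in the others (gap over range 0.855). *Adamts5* was at 1818 in EV replicate 2 against 1704 to 1716 (0.894). *Timp1* was at 1266 in EV replicate 4 against 1188 to 1201 (0.836). *Serpinb6b* was at 2179 in EV replicate 1 against 2059 to 2069 (0.918), and *Plaur* at 602 in the same library against 549 to 555 (0.891). *Serpine3* was at 9.995 in EV replicate 2 against 2.37 to 3.13 (0.900), the value that overlaps the *Hdac3* KO group. *Serpina9* was at 20.9 in EV replicate 3 against 9.49 to 9.995 (0.956), and at 1.88 in *Hdac3* KO replicate 3 against 0.915 to 1.05 (0.858). In the *Hdac3* KO libraries, *Mmp16* was at 388 in replicate 2 against 408 to 411 (0.870). *Plat* was at 1900.4 in *Hdac3* KO replicate 4 against 2022 to 2045 (0.840). The share of *Loxl2* in the lysyl oxidase level was 10.1% in *Hdac3* KO replicate 4 against 10.86% to 10.998% (0.844). No library accounts for more than 2 of the 11 values.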

How the results depend on the processing

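Of 865 comparisons of a member's log2 fold change with its alternative, 844 kept direction and side of the cut-off, 14 lost the call, 3 gained it and 4 reversed. Of the 58 members, 51 kept both in every refit that included them (other scalings, DESeq2, the block, gene filters and left-out libraries, but not the cut-offs on fold change), and the low-count filter left 53 of the 58 to test. Requiring a log2 fold change of at least 1 left 8 higher and 19 lower members, and 367 higher and 692 lower genes of the table. Requiring at least 0.5 left 16 higher and 29 lower members, and 1249 higher and 1935 lower genes of the table. With totals of the listed genes and no TMM, 2452 genes of the table were higher in place of 3895. Without TMM, *Adam17* reversed to -0.0056 and *Htra2* to -0.022. With totals of the listed genes they reversed to -0.031 and -0.047. The sign of both differences, and the calls of *Adam9* and *Serpinb6a*, depend on the scaling. *Htra2* passed with DESeq2 size factors (adjusted p = 0.00575), with protein-coding genes only (0.00882) and without *Hdac3* KO replicate 4 (0.00379). *Serpine3* lost its call without EV replicate 1, 3 or 4 or *Hdac3* KO replicate 1 or 3, with log2 fold changes of 1.15 to 1.35 in those fits. The replicate block kept the calls of the 57 members called, 22 higher and 35 lower, and *Htra2* stayed uncalled. The shared numbers carry no stated pairing, the correlation of same-numbered libraries was -0.107 to 0.118 over 7187 genes, and 2 of 8 libraries correlated best with their own number. Members with few reads, such as *Serpind1*, *Serpina9*, *Adam12* and *Mmp25*, are limited by depth.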
